A study of Xenopus tropicalis with 24 samples.

Results

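The genes described here act in mitosis and at the G2/M transition, the step at which a cell that has copied its DNA commits to dividing. A list of 50 symbols was matched to the gene names of the count table, and a name that added a dot and a number to a listed symbol was counted as a member too. The match found 49 of the symbols and 52 genes out of the 26531 in the table, because *ccnb1*, *prc1* and *racgap1* each had a second gene (*ccnb1.2*, *prc1.2* and *racgap1.2*), and *pttg1* was not in the table under that symbol. The match used names only and no measured value, but the members were chosen with earlier results of these data known. The members fell into 10 roles: cyclins and CDK1 (6 genes), kinases and phosphatases that switch CDK1 on and off (5), mitotic kinases (3), the chromosomal passenger complex (4), the spindle checkpoint (5), anaphase control (3), the kinetochore (7), spindle motors and microtubule proteins (9), cytokinesis (4) and chromosome structure (6).

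RNA was sequenced from amputated tails of *Xenopus tropicalis* tadpoles, taking all new tissue and a narrow strip of the stump next to the cut. The tadpoles were wild type (WT) or TRα-/-β-/- double knockouts (TRDKO) without the thyroid hormone receptors TRα and TRβ, at stage 56, before metamorphosis, or at stage 61, its climax, giving the groups WT56, WT61, TRDKO56 and TRDKO61. Each group was collected at 0, 6 and 24 h post-amputation (hpa), spanning wound healing (0 to 6 hpa) and blastema formation (6 to 24 hpa), with 2 libraries in each of the 12 conditions and 24 libraries in all. Tails of WT56, TRDKO56 and TRDKO61 tadpoles regenerate, and those of WT61 tadpoles do not. TRDKO tadpoles came from matings of TRα-/-β+/- frogs, so the 2 genotypes had different parents, and genotype and parentage cannot be told apart. Several tadpoles stood behind each condition. The labels call the 2 libraries biological replicas, but how the tadpoles were divided between them was not given in the sources used here, so p-values measure only the spread between these libraries, which may be technical.

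Entry into mitosis is driven by the kinase CDK1 bound to a B-type or A-type cyclin. The kinases WEE1 and PKMYT1 hold CDK1 inactive and CDC25 phosphatases release it. The spindle checkpoint then delays anaphase until the kinetochores of every chromosome are attached to microtubules, after which the anaphase-promoting complex destroys the cyclins and the cell is cleaved. Transcripts of many of these genes accumulate only in cells that are in late S phase, G2 or mitosis, so in a tissue their level is widely used as a readout of dividing cells. In RNA from a whole piece of tissue, fewer cells in division and less of these transcripts per dividing cell cannot be told apart.

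Each library held between 3956148 and 20731438 counts (median 12576320), and levels are given as CPM, counts scaled to a common library size. The receptor genes do not check the genotype here, because small mutations leave the transcripts countable. In TRDKO libraries *thra* was at 5.87 to 10.6 CPM and *thrb* at 13.7 to 112 CPM. The summed level of 7 thyroid hormone response genes, *thrb* among them, was 1078 to 1740 CPM in WT61. This sum was 113.4 to 282.8 CPM in WT56, 227.1 to 406.1 CPM in TRDKO56 and 301.4 to 432.7 CPM in TRDKO61. In WT61 *thrb* alone was at 119.9 to 218.5 CPM. The tail label was met by markers of epidermis (17 genes, 6354 to 15000 CPM in sum) and of skeletal muscle (10 genes, 4626 to 29400 CPM in sum), with at most 2 epidermis genes and 1 muscle gene at 0 in any library.

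Of the 52 members, *ccnb1* had 0 to 7 counts in a library and *birc5*, the survivin subunit of the passenger complex, 0 to 1, and neither reached the count needed for a test in any comparison. The other 50 were tested in at least 1 comparison, 1 of them, *racgap1.2* (2 to 46 counts a library), not in the 6 against 0 hpa comparisons of TRDKO, and another, *ccnb2*, not in the difference between WT61 and TRDKO61 for that step. The cyclin B1 signal of these tails thus lay in *ccnb1.2* (chromosome 4, 93737281 to 93743352, plus strand), which had at least 27 counts in each library, and not in *ccnb1* (chromosome 1, 186424449 to 186428527, minus strand). Reads that fit both copies of *ccnb1*, *prc1* or *racgap1* could be split or lost in the counting, so the values of these 6 genes are uncertain. Exons of *cdca8* overlap *dnali1* and exons of *ncaph* overlap LOC100485970, each on the opposite strand. The strand setting of the counting was not settled, so reads of these neighbours may be in the counts of *cdca8* and *ncaph*.

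Levels of different genes were compared as mean CPM per kilobase of exon over the 24 libraries. By that scale *nek2*, a kinase that separates centrosomes, was highest at 37.4, followed by *cdk1* (chromosome 7, 16802494 to 16811397, plus strand) at 25.7. Next came *bub3* of the spindle checkpoint at 20.5, *fzr1*, an activator of the anaphase-promoting complex at mitotic exit, at 15.03, *ccnb1.2* at 14.9 and *ccna2*, encoding cyclin A2, at 10.4. This order did not hold in each condition. At 0 hpa in WT61 *nek2* was at 23.9, *bub3* at 15.03, *fzr1* at 14.8 and *cdk1* at 6.54, while in WT56 *nek2* was at 47.5 and *cdk1* at 44.1. The lowest tested members over all libraries were *racgap1.2* at 0.593, *espl1*, which encodes the separase that cuts cohesin, at 0.653, and *cdc25a* at 0.806.

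The members rose and fell together across the 24 libraries. As a description over these libraries, which share conditions and scaling, 38 members had a Pearson correlation of at least 0.9 with the median of the other members, led by *kif23*, a motor of the central spindle, at 0.993. The passenger complex scaffold *incenp* followed at 0.991, the checkpoint kinase *ttk* at 0.989, and *cdk1* and the checkpoint kinase *bub1* both at 0.988. The tested members least like the rest were *wee1* at -0.0787, *fzr1* at 0.322, *pkmyt1* at 0.413, *racgap1.2* at 0.425, *mki67* at 0.605 and *bub3* at 0.702. The share of all genes with a correlation of at least 0.9 with the members' median was not counted.

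**Figure D1:**
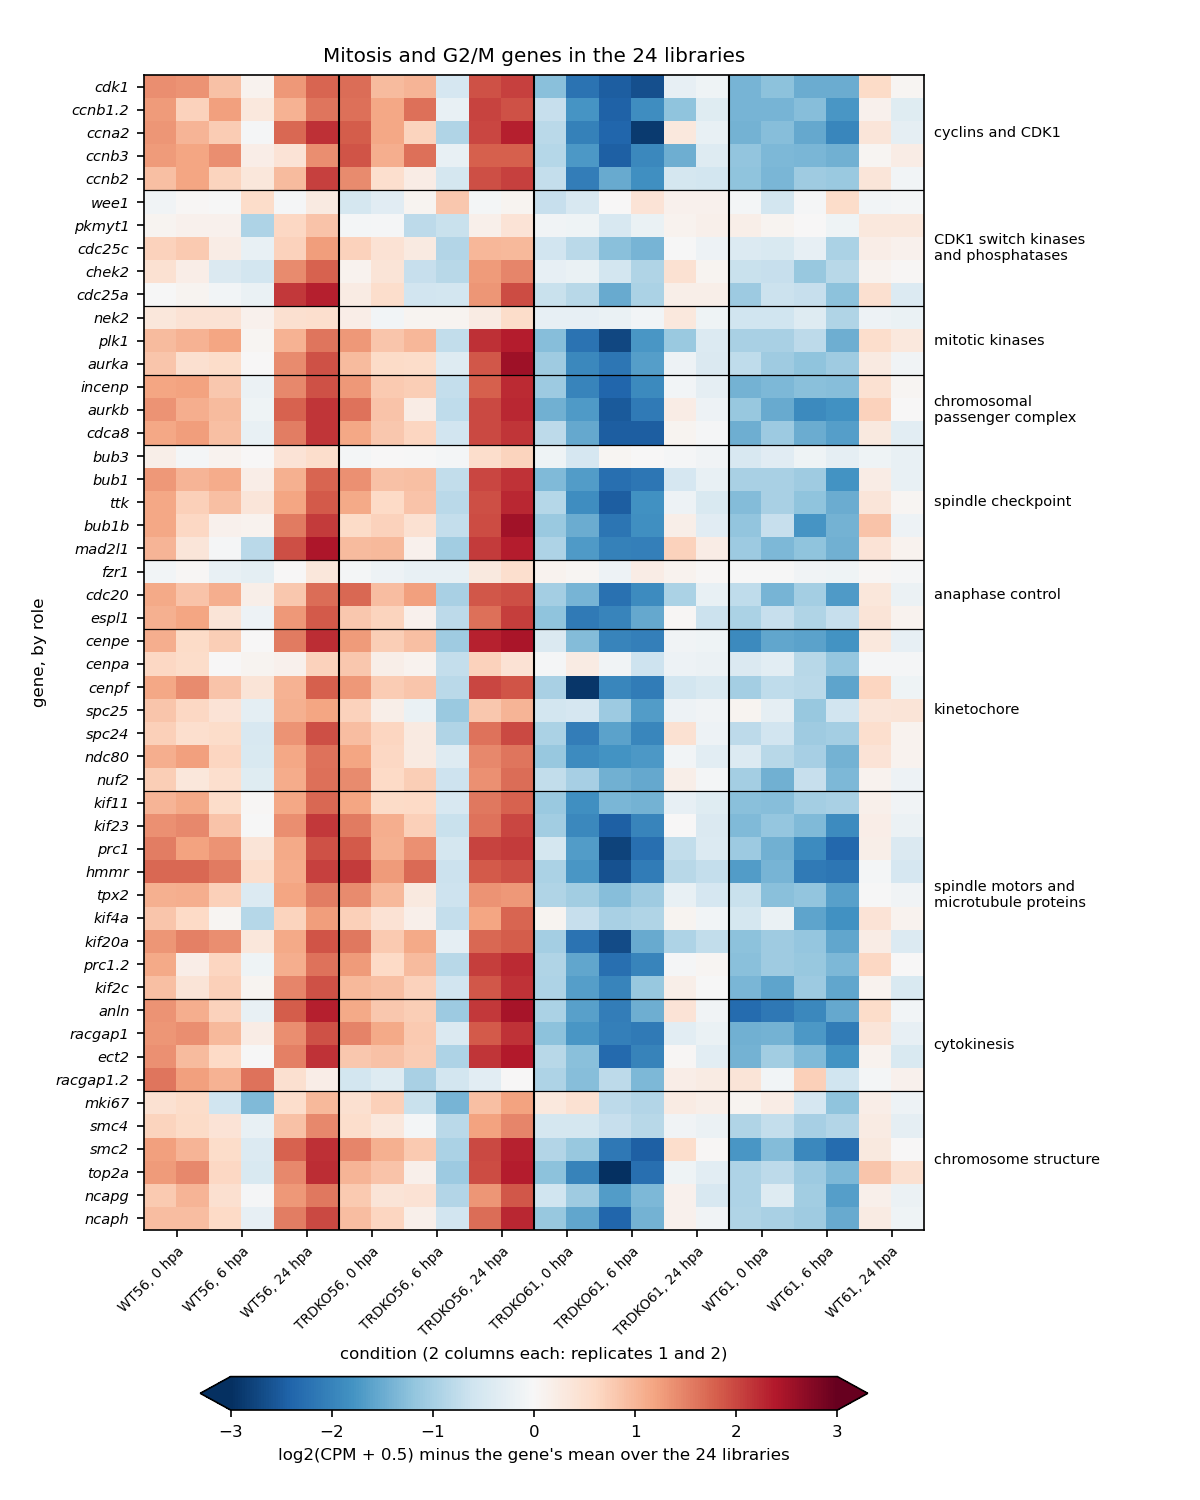
Level of each of the 50 tested members (rows, by role) in each of the 24 libraries (columns, by group and time), as log2(CPM + 0.5) minus the gene's mean over all libraries. Stage 56 columns are mostly above a gene's mean and stage 61 columns below it, the 24 hpa columns are the highest within most groups, and *wee1*, *fzr1* and *bub3* show little of this pattern.

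The median CPM of the 50 tested members in a library gives the same course in short form. In WT56 the median was 21.6 and 20.2 CPM at 0 hpa, 17.4 and 10.02 at 6 hpa, and 23.02 and 32.9 at 24 hpa. In TRDKO56 it was 25.5 and 17.9, then 17.02 and 6.13, then 34.6 and 40.2 CPM. Both stage 56 groups thus had a dip at 6 hpa with a wide gap between the 2 libraries, and their highest libraries at 24 hpa.

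At stage 61 the medians were lower at each time. In TRDKO61 they were 5.25 and 2.78 CPM at 0 hpa, 1.64 and 2.59 at 6 hpa, and 8.14 and 8.44 at 24 hpa. In WT61 they were 4.63 and 4.70, then 3.49 and 2.93, then 12.8 and 9.42 CPM. The highest stage 61 library, at 24 hpa in WT61, thus stood below both 0 hpa libraries of either stage 56 group.

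Replicates differed in a direction that most members shared. At 6 hpa in TRDKO56, 45 of the 50 members were lower in replicate 2, and the median ratio of replicate 1 to replicate 2 was 2.42. At 6 hpa in WT56, 47 members were lower in replicate 2, with a median ratio of 1.74. At 0 hpa in TRDKO61, 43 were lower in replicate 2, with a median ratio of 1.70. At 24 hpa in WT56 the direction was opposite, with 1 member lower in replicate 2 and a median ratio of 0.682. The smallest gaps were in WT61 at 0 hpa, with a ratio of 0.969, and in WT56 at 0 hpa, with a ratio of 1.06. These counts were not made over all genes, so a gap particular to the members cannot be told from a library-wide one.

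Before any regrowth, the mitotic genes were much lower in stage 61 tails than in stage 56 tails, in both genotypes. A member is said to be called when its change was over 2-fold (an absolute log2 fold change over 1) with an adjusted p under 0.05 (edgeR quasi-likelihood test, Benjamini-Hochberg over all genes tested). At 0 hpa 43 of 50 members were lower at stage 61 in WT, where 7.05% of all genes tested were called lower, and 39 of 50 in TRDKO, where 6.61% were. The median log2 fold change of the members was -2.25 in WT and -2.35 in TRDKO, and no member was called higher. Both genotypes shared 37 of these calls, which is 37 of 43 in WT and 37 of 39 in TRDKO. The overlap of calls over all genes was not counted, so an overlap particular to the members cannot be told.

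*cdk1* was at 60.1 and 58.2 CPM in WT56 and at 8.21 and 9.34 CPM in WT61 at 0 hpa. In TRDKO it was at 72.6 and 43.5 CPM at stage 56 and at 9.16 and 4.46 CPM at stage 61. Each stage 61 library was below each stage 56 library of its genotype, with log2 fold changes of -2.78 ± 0.31 (SE) in WT (adjusted p = 0.000213) and -3.05 ± 0.31 in TRDKO (adjusted p = 0.000142).

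The cyclins and CDK1 all passed, with a median log2 fold change of -2.73 in WT and -2.89 in TRDKO over the 5 tested. The B-type cyclin *ccnb3* was at 20.2 and 19.01 CPM in WT56 and at 3.28 and 2.88 CPM in WT61, a log2 fold change of -2.72 ± 0.34 (adjusted p = 0.000167). *ccna2* was at 26.9 and 21.8 CPM in WT56 and at 3.57 and 3.99 CPM in WT61, a log2 fold change of -2.73 ± 0.38 (adjusted p = 0.000686). For both cyclins the stage 61 levels lay well below the lowest stage 56 library.

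All 3 tested genes of the passenger complex, which corrects faulty attachments of chromosomes to the spindle, were called in both genotypes. *incenp* was at 42.0 and 42.6 CPM in WT56 and at 6.57 and 6.87 CPM in WT61, a log2 fold change of -2.69 ± 0.26 (adjusted p = 3.4e-05). In TRDKO *incenp* was at 45.4 and 32.0 CPM at stage 56 and at 8.29 and 4.28 CPM at stage 61, a log2 fold change of -2.59 ± 0.25 (adjusted p = 4.29e-05). The kinase of the complex, *aurkb*, had log2 fold changes of -2.77 ± 0.29 in WT and -3.04 ± 0.28 in TRDKO.

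The largest stage difference in WT was that of *anln*, which encodes anillin, a scaffold of the contractile ring (chromosome 4, 76400487 to 76429309, minus strand). It was at 26.3 and 22.1 CPM in WT56 and at 1.64 and 1.88 CPM in WT61, a log2 fold change of -3.81 ± 0.28 (adjusted p = 3.44e-06). In TRDKO *anln* was at 22.8 and 18.01 CPM at stage 56 and at 4.99 and 2.92 CPM at stage 61, a log2 fold change of -2.34 ± 0.24 (adjusted p = 4.46e-05). *racgap1*, which encodes a regulator of the cleavage furrow (chromosome 2, 148514171 to 148531409, minus strand), had log2 fold changes of -2.99 ± 0.23 in WT and -2.95 ± 0.22 in TRDKO.

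Among the spindle motors and microtubule proteins 9 of 9 were called lower in WT and 8 of 9 in TRDKO, and in the kinetochore 6 of 7 in each genotype. *kif11*, the motor that pushes spindle poles apart, was at 41.1 and 44.5 CPM in WT56 and at 8.11 and 7.93 CPM in WT61, a log2 fold change of -2.45 ± 0.26 (adjusted p = 5.37e-05). *cenpe*, a kinetochore motor that moves chromosomes to the spindle equator, was at 47.5 and 33.4 CPM in WT56 and at 5.5 and 7.16 CPM in WT61, a log2 fold change of -2.72 ± 0.32 (adjusted p = 0.000285). *smc2*, a core subunit of condensin, had log2 fold changes of -2.76 ± 0.20 in WT and -2.34 ± 0.19 in TRDKO.

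The 5 members called in neither genotype at 0 hpa were *bub3*, *fzr1*, *mki67*, *pkmyt1* and *wee1*. *mki67*, which encodes the Ki-67 coat protein of mitotic chromosomes, was at 103 and 110.1 CPM in WT56 and at 79.5 and 87.6 CPM in WT61, a log2 fold change of -0.38 ± 0.14 (adjusted p = 0.0563). In TRDKO it was at 104 and 124 CPM at stage 56 and at 92.6 and 103 CPM at stage 61, a log2 fold change of -0.25 ± 0.13 (adjusted p = 0.206). *fzr1* had the smallest difference in the anaphase group, at 45.5 and 49.7 CPM in WT56 and at 47.7 and 48.3 CPM in WT61, a log2 fold change of -0.01 ± 0.12 (adjusted p = 0.947).

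**Figure D2:**
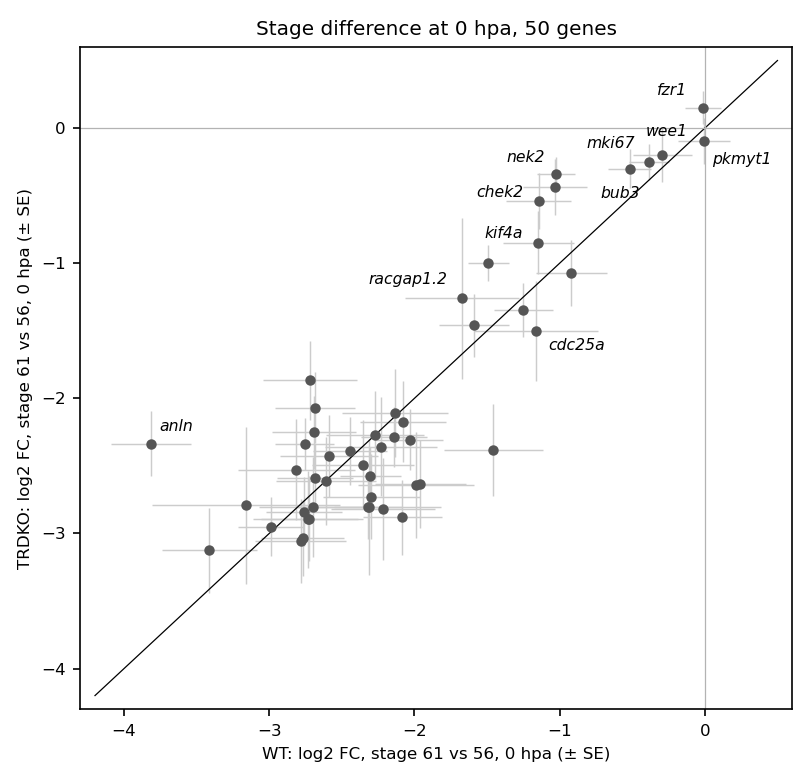
Log2 fold change of stage 61 against stage 56 at 0 hpa in WT (horizontal axis) and in TRDKO (vertical axis) for the 50 tested members, 1 point a gene. Most points lie below -2 on both axes, and *wee1*, *fzr1*, *bub3*, *pkmyt1* and *mki67* lie near 0 on both axes.

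The stage difference was also present at 24 hpa, when 37 of 50 members were lower in WT61 than in WT56 (5.51% of all genes called lower) and 42 of 50 lower in TRDKO61 than in TRDKO56 (3.58%). The median log2 fold changes were -1.45 and -2.05, and all 37 WT calls were among the 42 TRDKO calls. Here too the overlap over all genes was not counted. *cdk1* was at 56.4 and 77.1 CPM in WT56 and at 33.5 and 23.6 CPM in WT61 at 24 hpa, a log2 fold change of -1.22 ± 0.20 (adjusted p = 0.00296). In TRDKO it was at 85.5 and 95.3 CPM at stage 56 and at 19.02 and 20.4 CPM at stage 61, a log2 fold change of -2.17 ± 0.20 (adjusted p = 0.000871). The groups did not overlap in either genotype. Without replicate 2 of WT56 at 24 hpa the WT count was 24 and not 37.

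At 6 hpa 31 of 50 members were lower in WT61 (7.65% of all genes called lower) and 25 of 50 in TRDKO61 (3.21%), with medians of -1.75 and -2.33. Single libraries moved these counts. In WT they were 2 without replicate 1 of WT56, 17 without its replicate 2, 8 without replicate 1 of WT61 and 2 without its replicate 2. In TRDKO they were 0 without replicate 1 of TRDKO56, 30 without its replicate 2, and 0 without either replicate of TRDKO61. The median stayed at -1.32 or lower in WT and at -1.43 or lower in TRDKO when any library was left out.

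Tissue markers moved with stage as well. At 0 hpa the summed level of the 10 muscle markers was 19390 and 29400 CPM in WT56 against 14430 and 13050 in WT61, and 16830 and 13470 in TRDKO56 against 8699 and 9772 in TRDKO61. The sum of the 9 notochord and cartilage markers was 1447 and 1509 CPM in WT56 and 390.7 and 535.2 in WT61, and 999.9 and 819.3 in TRDKO56 and 352.7 and 301.7 in TRDKO61. The sum of the 12 leukocyte markers was 668.0 and 592.9 CPM in WT56 and 965.7 and 850.7 in WT61, and 574.1 and 635.3 in TRDKO56 and 705.5 and 721.2 in TRDKO61. The sum of the 9 neural markers was 174.2 and 186.7 CPM in WT56 and 119.3 and 119.5 in WT61, and 114.9 and 104.6 in TRDKO56 and 37.69 and 49.19 in TRDKO61, with 1 of 9 called lower in WT and 6 of 9 in TRDKO. The epidermis sum was 12150 and 15000 CPM in WT56 and 9944 and 9197 in WT61, and 12410 and 10540 in TRDKO56 and 8100 and 9188 in TRDKO61, with 5 and 3 of 16 tested genes called lower. At most 1 leukocyte or muscle gene, at most 2 epidermis genes, no neural gene and at most 2 notochord and cartilage genes were at 0 in any library, and the part of these cell types in the stage difference was not tested.

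During wound healing most members had a lower fitted level at 6 hpa, but few passed the test. From 0 to 6 hpa, 5 of 50 members were called lower in WT56 (4.51% of all genes), 5 of 49 in TRDKO56 (3.93%), 2 of 49 in TRDKO61 (3.65%) and 1 of 50 in WT61 (1.71%), and none was called higher. The median log2 fold changes were -0.63, -0.85, -0.75 and -0.24, beside medians over all genes that lay between -0.04 and 0.03 in every comparison. Fitted changes were above 0 for 2 of 50 members in WT56 (49.8% of all genes), 2 of 49 in TRDKO56 (47%), 5 of 49 in TRDKO61 (50.1%) and 11 of 50 in WT61 (49.8%). The share of members called in TRDKO61 and WT61 was close to that of all genes.

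*mki67* (chromosome 7, 23769787 to 23793694, minus strand) was called in 3 groups. It was at 103 and 110.1 CPM at 0 hpa and at 49.0 and 29.8 CPM at 6 hpa in WT56, a log2 fold change of -1.43 ± 0.27 (adjusted p = 0.0106). In TRDKO56 it went from 104 and 124 to 46.6 and 28.3 CPM, a log2 fold change of -1.61 ± 0.23 (adjusted p = 0.00157), and in TRDKO61 from 92.6 and 103 to 42.9 and 40.2 CPM, a log2 fold change of -1.21 ± 0.23 (adjusted p = 0.00706). In WT61, from 79.5 and 87.6 to 52.6 and 32.1 CPM, the log2 fold change was -0.95 ± 0.26 (adjusted p = 0.0667). In each of the 4 groups both 6 hpa libraries were below both 0 hpa libraries.

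*mad2l1*, which encodes the checkpoint protein MAD2 (chromosome 1, 71051959 to 71057772, minus strand), was at 10.01 and 6.13 CPM at 0 hpa and at 4.54 and 2.47 CPM at 6 hpa in WT56, a log2 fold change of -1.25 ± 0.37 (adjusted p = 0.0467). It was also called in TRDKO56, from 9.52 and 9.72 to 5.13 and 2.02 CPM, a log2 fold change of -1.43 ± 0.43 (adjusted p = 0.0459). *top2a*, which encodes the topoisomerase that untangles sister chromatids, was called in WT56, from 46.9 and 52.4 to 29.4 and 13.6 CPM, a log2 fold change of -1.20 ± 0.30 (adjusted p = 0.0281). All of these 6 hpa libraries lay below the 0 hpa libraries.

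*aurkb* and *chek2*, a kinase of the DNA damage checkpoint, were called lower in TRDKO56, with log2 fold changes of -1.53 ± 0.37 (adjusted p = 0.0214) and -1.10 ± 0.26 (adjusted p = 0.019). *cdca8*, the borealin subunit of the passenger complex, was called in TRDKO61, from 3.81 and 2.10 to 0.840 and 0.846 CPM, a log2 fold change of -1.81 ± 0.50 (adjusted p = 0.0377). The 1 call in WT61 was *kif4a*, a chromosome-bound motor, from 10.4 and 13.04 to 4.74 and 3.96 CPM, a log2 fold change of -1.41 ± 0.31 (adjusted p = 0.0321). *kif4a* was also called in WT56, from 27.3 and 22.99 to 15.8 and 8.10 CPM.

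Leukocyte markers moved the other way over this step. WT56 had 8 of 11 tested called higher (4.69% of all genes), TRDKO56 9 of 12 (5.11%), TRDKO61 10 of 12 (5.34%) and WT61 3 of 11 (2.26%). Their sum at 6 hpa was 823.1 and 1057 CPM in WT56 and 1043 and 1659 CPM in WT61, with 1248 and 1240 CPM for TRDKO56 and 1712 and 2129 CPM for TRDKO61, above both 0 hpa libraries of the group in each case. Of the notochord and cartilage markers WT56 had 0 of 7 tested called lower, TRDKO56 1 of 8, TRDKO61 4 of 8 and WT61 3 of 7, and in the same order their sum at 6 hpa was 721.5 to 789.5 CPM, 387.8 to 457.2 CPM, 63.47 to 68.46 CPM and 91.47 to 187.0 CPM. The part of these cell types in the members' change was not tested.

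The number of calls from 0 to 6 hpa turned on single libraries. In WT56 it was 25 without replicate 1 at 6 hpa, 1 without replicate 2 at 6 hpa, and 0 without either replicate at 0 hpa. In TRDKO56 it was 36 without replicate 1 at 6 hpa, 1 without replicate 2 at 6 hpa, 1 without replicate 1 at 0 hpa and 3 without replicate 2 at 0 hpa. In TRDKO61 it was 1 without replicate 1 at 0 hpa or without replicate 2 at 6 hpa. In WT61 it was 2 when replicate 1 at 6 hpa was left out, and 0 for any other of its libraries. The median stayed negative throughout, and the values nearest 0 were -0.35, -0.33, -0.37 and -0.12 for WT56, TRDKO56, TRDKO61 and WT61.

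Between 6 and 24 hpa, the time of blastema formation, most members had a higher fitted level at the later time in all 4 groups, including WT61, whose tails do not regenerate. Called higher were 31 of 50 members in WT56 (5.99% of all genes), 38 in TRDKO56 (5.7%), 20 in TRDKO61 (1.66%) and 12 in WT61 (0.872%), and none was called lower. The median log2 fold changes were 1.16, 1.73, 1.90 and 1.57, with WT56 the smallest and WT61 below TRDKO56. The median over the members of the change in WT61 minus that in WT56 was 0.35. It was -0.15 to 0.66 when 1 library was left out, so its sign turned. With edgeR the stage 61 groups had fewer calls than WT56, and with DESeq2 they had more, at 36 for WT61 and 37 for TRDKO61 against 32 for WT56 (TRDKO56 had 41). Fitted changes were above 0 for 48, 49, 48 and 48 of the 50 members, where 51.2%, 48.9%, 49.3% and 49.5% of all genes had one.

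Called in all 4 groups were *aurkb*, *bub1b*, *ccna2*, *chek2*, *mad2l1* and *smc2*. Another 16 members were called in 3 groups, 13 in 2, and 3 in 1 group. How many of all genes were called in as many groups was not counted. The remaining 12 were called in none: *bub3*, *ccnb1.2*, *ccnb3*, *cdc20*, *cenpa*, *fzr1*, *hmmr*, *kif20a*, *nek2*, *prc1*, *racgap1.2* and *wee1*.

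*mad2l1* was the member with the largest change in WT56, TRDKO56 and TRDKO61. It went from 4.54 and 2.47 CPM at 6 hpa to 19.2 and 27.5 CPM at 24 hpa in WT56, a log2 fold change of 2.71 ± 0.32 (adjusted p = 0.00167). In TRDKO61 it went from 0.763 and 0.746 to 7.82 and 5.56 CPM, a log2 fold change of 3.15 ± 0.45 (adjusted p = 0.0218), and in WT61 from 1.75 and 1.40 to 6.42 and 5.03 CPM, a log2 fold change of 1.86 ± 0.35 (adjusted p = 0.0465). In TRDKO56 the log2 fold change was 2.69 ± 0.38 (adjusted p = 0.00401). The groups did not overlap in any of these comparisons.

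*aurkb* led in WT61, from 2.24 and 2.39 to 15.9 and 9.87 CPM, a log2 fold change of 2.49 ± 0.42 (adjusted p = 0.0383). In TRDKO61 it went from 1.30 and 1.84 to 11.49 and 8.67 CPM, a log2 fold change of 2.66 ± 0.38 (adjusted p = 0.0218), and in WT56 from 19.3 and 8.89 to 34.7 and 45.1 CPM, a log2 fold change of 1.48 ± 0.36 (adjusted p = 0.023). The WT61 libraries at 24 hpa thus lay in the range of the WT56 libraries at 6 hpa. *cdca8* of the same complex was called in TRDKO61, from 0.840 and 0.846 to 7.41 and 6.87 CPM, a log2 fold change of 3.08 ± 0.43 (adjusted p = 0.0218), and in WT61 had a log2 fold change of 1.81 ± 0.46 (adjusted p = 0.0982).

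The checkpoint kinase *bub1b* went from 1.18 and 1.65 to 9.83 and 4.64 CPM in WT61, a log2 fold change of 2.40 ± 0.42 (adjusted p = 0.0383). *smc2* went from 5.23 and 3.87 to 26.4 and 21.5 CPM in WT61, a log2 fold change of 2.39 ± 0.35 (adjusted p = 0.0326), and from 31.4 and 15.8 to 73.2 and 99.2 CPM in WT56, a log2 fold change of 1.84 ± 0.31 (adjusted p = 0.00654). *ccna2* went from 1.6 and 0.995 to 13.1 and 8.92 CPM in TRDKO61, a log2 fold change of 3.13 ± 0.56 (adjusted p = 0.0308). In each case both 24 hpa libraries exceeded both 6 hpa libraries.

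Among the kinases and phosphatases that switch CDK1 was *cdc25a*, a phosphatase used at the entry into S phase as well as mitosis. It was called in WT56, TRDKO56 and TRDKO61. It went from 1.88 and 1.68 to 10.4 and 12.1 CPM in WT56, a log2 fold change of 2.63 ± 0.39 (adjusted p = 0.0037). In WT61 it went from 1.06 and 0.577 to 3.01 and 1.38 CPM, a log2 fold change of 1.44 ± 0.45 (adjusted p = 0.144). *chek2*, the kinase of the DNA damage checkpoint, rose in each group. Its log2 fold changes were 2.15 ± 0.20 and 2.22 ± 0.24 at stage 56 (WT56 and TRDKO56) and 1.15 ± 0.21 and 1.10 ± 0.24 at stage 61 (WT61 and TRDKO61).

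By role, the 6 chromosome structure genes were all called in both stage 56 groups, with 4 of them called in TRDKO61 and 1 in WT61. The 3 tested passenger complex genes were all called in WT56, TRDKO56 and TRDKO61 and 1 in WT61. Of the 5 tested cyclins and CDK1, WT56 had 1 called, TRDKO56 and TRDKO61 3 each and WT61 2, with medians of 0.99, 1.51, 2.14 and 1.79. *cdk1* went from 7.66 and 7.66 to 33.5 and 23.6 CPM in WT61, a log2 fold change of 1.91 ± 0.30 (adjusted p = 0.0362), and in WT56, from 41.8 and 24.3 to 56.4 and 77.1 CPM, its log2 fold change was 0.99 ± 0.28 (adjusted p = 0.037), just under the 2-fold limit.

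With edgeR most or all calls at stage 61 were lost when any 1 library was left out. In WT61 the count was 0 without any single library, and in TRDKO61 it was 0 without either replicate at 6 hpa, 0 without replicate 1 at 24 hpa and 6 without replicate 2 at 24 hpa. In WT56 it was 6 when replicate 2 at 6 hpa was left out and 3 when replicate 2 at 24 hpa was. In TRDKO56 it was 19 without replicate 1 and 9 without replicate 2 at 24 hpa. The medians held in all these cases, at no less than 0.84 and 1.28 in the stage 56 groups (WT56, TRDKO56) and 1.31 and 1.76 in the stage 61 groups (WT61, TRDKO61).

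**Figure D3:**
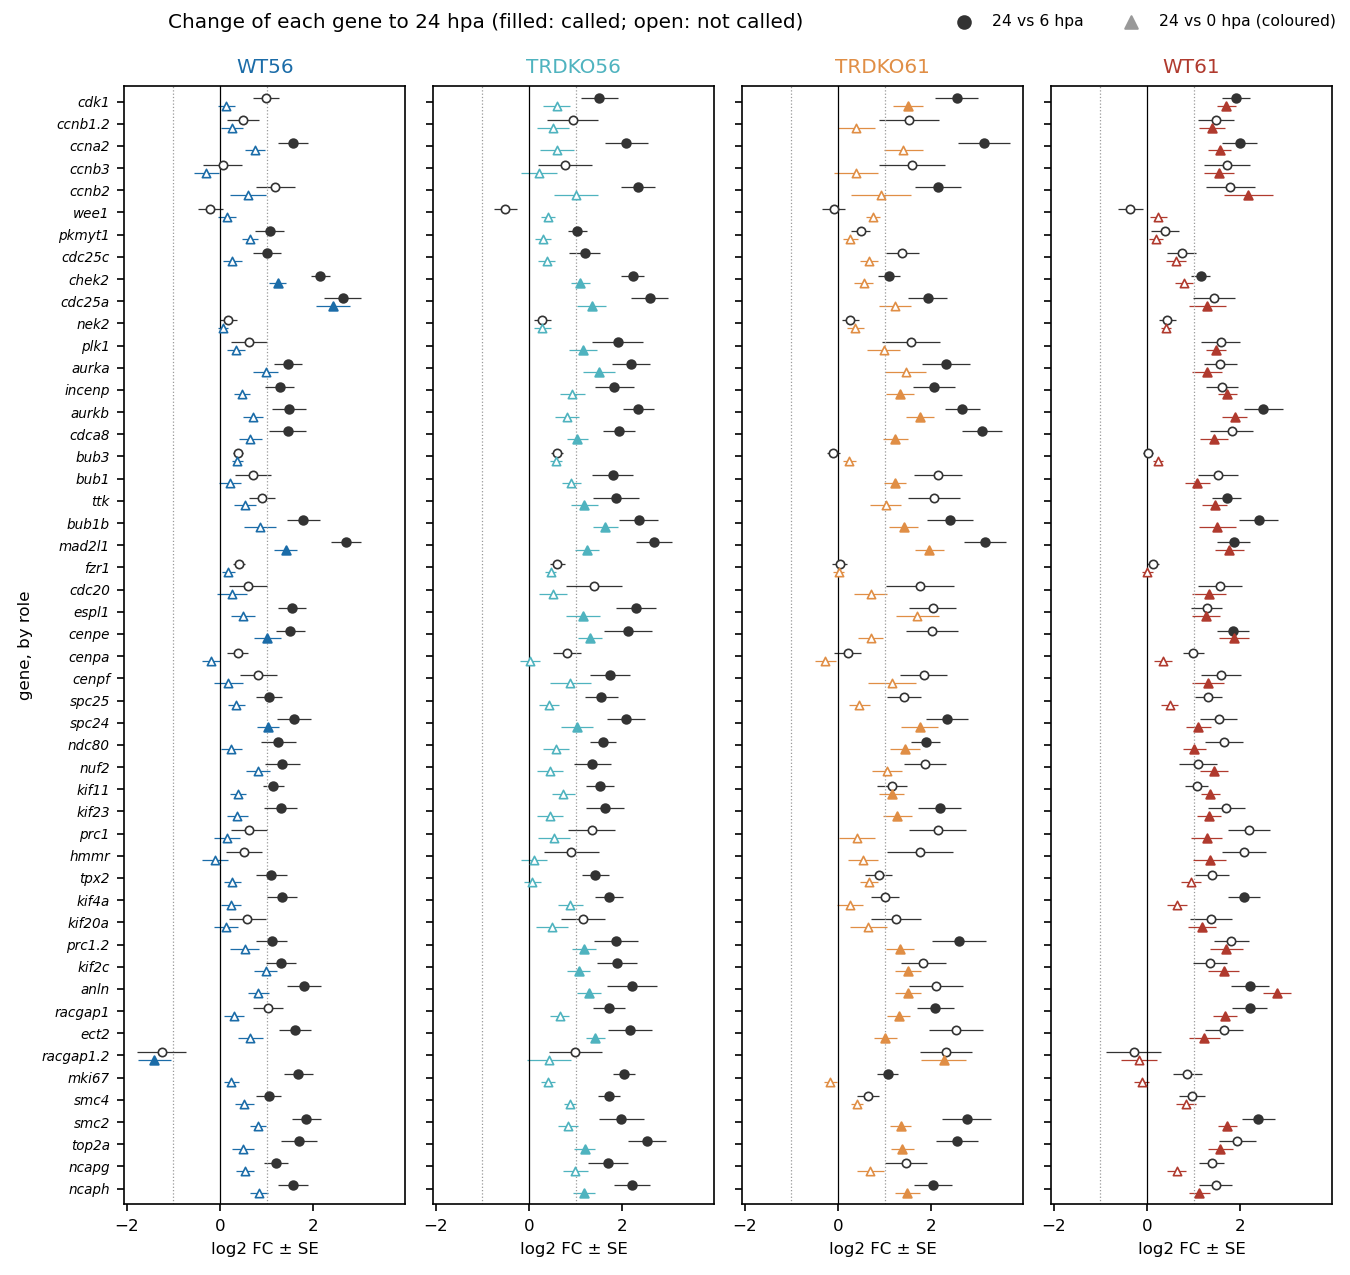
Log2 fold change with its SE for each of the 50 tested members in each group, for 24 against 6 hpa and for 24 against 0 hpa. Filled points passed the test: 31, 38, 20 and 12 members in WT56, TRDKO56, TRDKO61 and WT61 for 24 against 6 hpa, and 6, 17, 20 and 35 for 24 against 0 hpa.

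Set against the level at amputation, WT61 had the most calls of the 4 groups. From 0 to 24 hpa, 35 of 50 members were called higher in WT61 (3.86% of all genes), 20 in TRDKO61 (3.24%), 17 in TRDKO56 (5.35%) and 5 in WT56 (7.67%). The median log2 fold changes were 1.31, 1.04, 0.82 and 0.43. In WT56, 1 member was called lower, *racgap1.2*, as were 11.1% of all genes. The WT56 share was close to that of all genes. With all 24 libraries in 1 fit, the counts in both directions were 16 in WT61, 14 in TRDKO61, 17 in TRDKO56 and 6 in WT56, so the order of the groups turned.

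In WT56 the 5 were *cdc25a*, *cenpe*, *chek2*, *mad2l1* and *spc24*, a kinetochore subunit. *cdc25a* led, from 2.0 and 2.15 to 10.4 and 12.1 CPM, a log2 fold change of 2.42 ± 0.36 (adjusted p = 0.000193). *mad2l1* went from 10.01 and 6.13 to 19.2 and 27.5 CPM, a log2 fold change of 1.40 ± 0.25 (adjusted p = 0.000686). For *cdk1* in WT56 the log2 fold change was 0.14 ± 0.18 (adjusted p = 0.561), with the 0 hpa libraries at 60.1 and 58.2 CPM and inside the range of the 24 hpa libraries.

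In TRDKO56 the largest rises were those of *bub1b*, from 8.04 and 8.79 to 21.6 and 32.6 CPM, a log2 fold change of 1.63 ± 0.27 (adjusted p = 0.00274), and of *aurka*, a kinase of the spindle poles, with 1.49 ± 0.35 (adjusted p = 0.0112). Next was *ect2*, which encodes the exchange factor that starts furrow ingression, with a log2 fold change of 1.42 ± 0.21 (adjusted p = 0.00169). In TRDKO61 the largest were those of *racgap1.2*, of *mad2l1* with 1.96 ± 0.31 (adjusted p = 0.00714) and of *aurkb* with 1.76 ± 0.31 (adjusted p = 0.0106).

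In WT61 *anln* had the largest rise, from 1.64 and 1.88 CPM at 0 hpa to 14.8 and 9.37 CPM at 24 hpa, a log2 fold change of 2.78 ± 0.30 (adjusted p = 9.6e-05). The B-type cyclin *ccnb2* went from 0.579 and 0.470 to 2.73 and 1.88 CPM, a log2 fold change of 2.18 ± 0.53 (adjusted p = 0.0133), and *aurkb* from 4.15 and 3.11 to 15.9 and 9.87 CPM, a log2 fold change of 1.88 ± 0.26 (adjusted p = 0.000466). All 24 hpa libraries of WT61 exceeded the 0 hpa libraries for these genes, and all stayed below the WT56 libraries of 24 hpa.

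The 35 WT61 calls and the 20 TRDKO61 calls shared 19 genes, which is 19 of 35 and 19 of 20. With WT56 the WT61 calls shared 4 genes, *cdc25a*, *cenpe*, *mad2l1* and *spc24*, which is 4 of 35 and 4 of the 5 WT56 calls. Neither overlap was counted over all genes. By role, 7 of 9 spindle motors and microtubule proteins, 5 of 7 kinetochore genes and 5 of the 5 tested cyclins and CDK1 were called in WT61, against 4, 2 and 1 in TRDKO61 and 0, 2 and 0 in WT56.

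Here too, single libraries moved the counts. Leaving out replicate 2 at 0 hpa gave 20 in WT61, 2 in TRDKO61 and 9 in TRDKO56. Leaving out replicate 1 at 24 hpa gave 16 in WT61 and 4 in TRDKO61, and leaving out replicate 2 at 24 hpa gave 6 in TRDKO56. In WT56 there were, with both directions counted, 14 without replicate 1 and 3 without replicate 2 at 24 hpa. The lowest WT61 count, 16, is below the 17 and 20 that TRDKO56 and TRDKO61 had with all their libraries. The median in WT61 stayed between 0.96 and 1.47. The lowest and highest medians were 0.84 and 1.53 in TRDKO61, 0.60 and 1.03 in TRDKO56, and 0.15 and 0.71 in WT56.

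Muscle markers moved with time in the opposite direction. Their sum at 24 hpa was 7205 and 6417 CPM in WT56 and 5714 and 8158 CPM in WT61, with 5334 and 5029 CPM for TRDKO56 and 4626 and 7875 CPM for TRDKO61, below the 0 hpa libraries of the same group in each case. The leukocyte sum at 24 hpa was 1101 and 1453 CPM in WT56 and 1158 and 1122 CPM in WT61, with 1111 and 930.9 CPM for TRDKO56 and 1296 and 1011 CPM for TRDKO61, above the 0 hpa libraries of the group in each case. The stump at 0 hpa held no new tissue, while later samples did, and the part of tissue makeup in these changes was not tested.

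Whether the change itself differed between groups was tested by the difference of the 2 log2 fold changes, with calls at an adjusted p under 0.05. From 0 to 24 hpa, 6 of 50 members had a larger rise in WT61 than in WT56, where 3.35% of all genes did, and none had a smaller one. The median difference over the members was 0.78 on the log2 scale. The 6 were *cdk1*, *ccnb3*, *plk1*, *incenp*, *anln* and *racgap1*.

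*anln* had a difference of 1.96 ± 0.38 (adjusted p = 0.0176). Its WT56 libraries were at 26.3 and 22.1 CPM at 0 hpa and at 36.4 and 52.5 CPM at 24 hpa, a log2 fold change of 0.82 ± 0.22, against 2.78 ± 0.30 in WT61. *cdk1* had a difference of 1.57 ± 0.27 (adjusted p = 0.0109), with log2 fold changes of 0.14 ± 0.18 in WT56 and 1.70 ± 0.20 in WT61. In both cases WT61 started far lower and ended below WT56.

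*ccnb3* was at 20.2 and 19.01 CPM at 0 hpa and at 10.9 and 21.9 CPM at 24 hpa in WT56, and went from 3.28 and 2.88 to 8.46 and 9.47 CPM in WT61. Its difference was 1.84 ± 0.42 (adjusted p = 0.0335). *incenp* had a difference of 1.26 ± 0.26 (adjusted p = 0.0199), from 6.57 and 6.87 to 25.2 and 19.1 CPM in WT61 and from 42.0 and 42.6 to 50.1 and 69.7 CPM in WT56. The 24 hpa libraries of *ccnb3* in WT56 spanned its 0 hpa libraries.

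*racgap1* had a difference of 1.37 ± 0.34 (adjusted p = 0.0388), with log2 fold changes of 0.30 ± 0.21 in WT56 and 1.67 ± 0.26 in WT61. *plk1*, which encodes the polo-like kinase that acts from mitotic entry to cytokinesis (chromosome 9, 21276409 to 21283216, minus strand), had a difference of 1.13 ± 0.28 (adjusted p = 0.0382). It was at 22.6 and 24.2 CPM at 0 hpa and at 24.3 and 36.2 CPM at 24 hpa in WT56, and at 5.60 and 5.64 CPM and then 16.8 and 14.4 CPM in WT61. Its WT56 levels at 24 hpa thus barely exceeded those at 0 hpa in 1 of the 2 libraries.

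These 6 calls also turned on single libraries. Their number was 1 without replicate 1 and 0 without replicate 2 of WT56 at 0 hpa, 12 without replicate 2 of WT56 at 24 hpa, 1 without either replicate of WT61 at 0 hpa, and 2 without replicate 1 of WT61 at 24 hpa. With a fit over all 24 libraries it was 0, and with no filter on low counts 23. The median difference stayed positive, between 0.50 and 1.02.

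**Figure D4:**
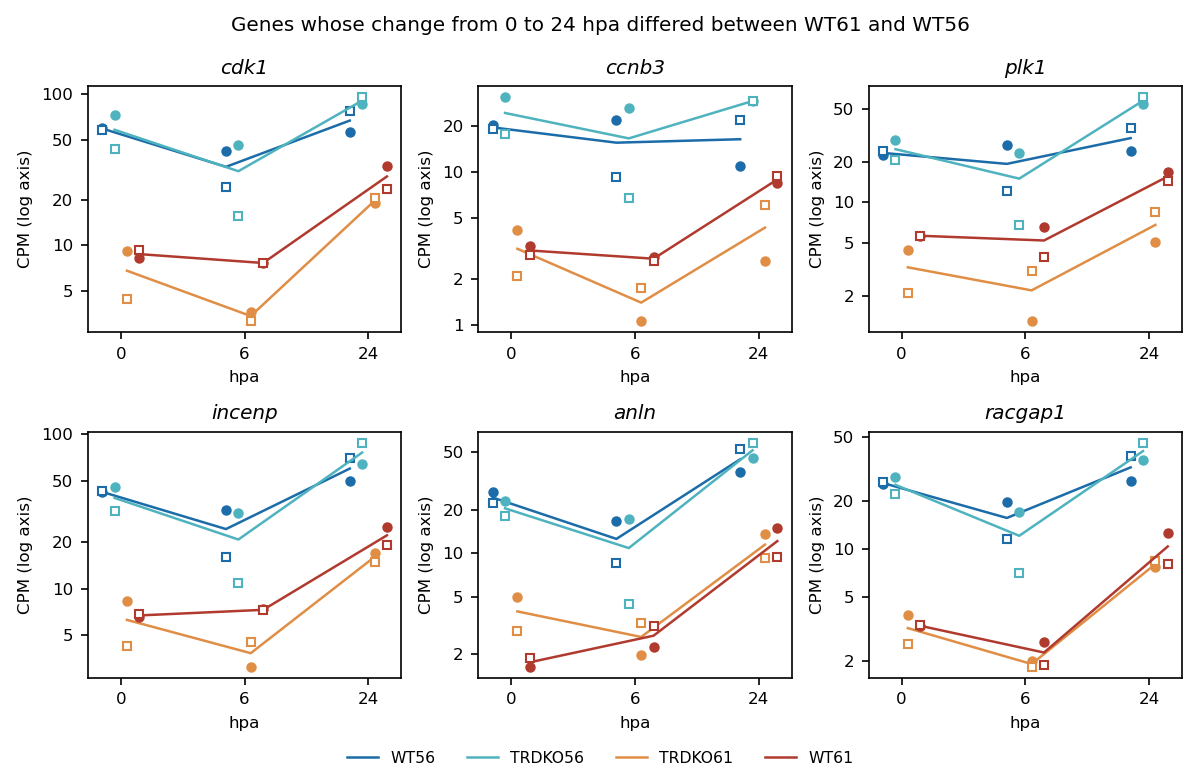
CPM (log axis) at 0, 6 and 24 hpa in each of the 4 groups for *cdk1*, *ccnb3*, *plk1*, *incenp*, *anln* and *racgap1*, with points for libraries and lines through the means of 2 libraries. WT61 starts far below WT56, for *anln* at 1.64 and 1.88 against 26.3 and 22.1 CPM, and the gap is smaller at 24 hpa, at 14.8 and 9.37 against 36.4 and 52.5 CPM.

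From 0 to 6 hpa and from 6 to 24 hpa no member was called different between WT61 and WT56 in edgeR (0.0251% and 0.081% of all genes were called). At an unadjusted p under 0.05 there were 4 and 5 members, beside 1827 of 15909 and 3025 of 16049 genes tested. DESeq2 called 0 members in both. Without replicate 1 of WT56 at 6 hpa, 3 members were called for 0 to 6 hpa.

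The comparison closest to the regeneration question sets WT61 against TRDKO61, which share the stage but not the outcome. In edgeR no member's change was called different between them from 0 to 6, 6 to 24 or 0 to 24 hpa, where 0%, 0% and 0.0363% of all genes were called. At an unadjusted p under 0.05 there were 2, 5 and 4 members, and DESeq2 called 0 in each. Over all genes tested, 969 of 16307, 953 of 16320 and 1584 of 16509 had such a p. The median difference, WT61 minus TRDKO61, was 0.45, -0.23 and 0.19 on the log2 scale, with a median SE for a member of 0.53, 0.45 and 0.42. Leaving out 1 library gave medians of 0.05 to 0.84, -0.53 to -0.10 and -0.17 to 0.43, so the sign of the last one turned. For *cdk1*, *anln* and *cenpe* the log2 fold change from 0 to 24 hpa was 1.70 ± 0.20, 2.78 ± 0.30 and 1.87 ± 0.33 in WT61 and 1.5 ± 0.33, 1.5 ± 0.29 and 0.70 ± 0.27 in TRDKO61. Each of these genes had the larger value in WT61, but over that step differences ran both ways. They spanned -2.43, for *racgap1.2* with its few counts, to 1.27 among the cytokinesis genes and -0.66 to 1.16 among the kinetochore genes. The range also crossed 0 for mitotic kinases (-0.21 to 0.47), spindle checkpoint (-0.21 to 0.42) and anaphase control (-0.44 to 0.59). For the kinases and phosphatases that switch CDK1 it was -0.50 to 0.26. All were positive for cyclins and CDK1 (0.13 to 1.23) and the passenger complex (0.10 to 0.40). So were those of spindle motors and microtubule proteins (0.04 to 0.84). None was called.

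Direct comparison of the genotypes at 1 stage and time gave few calls. At stage 56 these were 1 at 0 hpa (3.05% of all genes called in either direction), 0 at 6 hpa (0.206%) and 0 at 24 hpa (1.59%), with 3, 1 and 4 members at an unadjusted p under 0.05 in edgeR and 1, 0 and 0 called by DESeq2. At stage 61 these were 2 at 0 hpa (11.7%), 0 at 6 hpa (6.52%) and 1 at 24 hpa (5.2%). There, 12, 3 and 7 members had an unadjusted p under 0.05 in edgeR, and DESeq2 called 2, 1 and 2. Over all genes, such a p was found for 3486 of 15925, 1507 of 15993 and 3023 of 16271 at stage 56. At stage 61 it was found for 6574 of 15925, 4336 of 15993 and 5230 of 16271. The median log2 fold change of TRDKO against WT was -0.09, -0.25 and 0.20 at stage 56 and -0.01, -0.67 and -0.26 at stage 61. Leaving out 1 library gave medians of -0.31 to 0.14, -1.12 to 0.21 and -0.04 to 0.52 at stage 56 and of -0.44 to 0.19, -0.93 to -0.45 and -0.41 to -0.0026 at stage 61, so the sign turned at each time of stage 56 and at 0 hpa of stage 61. With all libraries, the shares called at stage 61 were below those of all genes at each time. They rest on 2, 0 and 1 calls, which single libraries moved, so this comparison is uncertain.

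The calls were few enough to name. At 0 hpa in stage 61 tails *anln* was higher in TRDKO, at 4.99 and 2.92 CPM against 1.64 and 1.88 in WT, a log2 fold change of 1.19 ± 0.30 (adjusted p = 0.0111). At 24 hpa in stage 61 tails *plk1* was lower in TRDKO, at 5.08 and 8.47 CPM against 16.8 and 14.4 in WT, a log2 fold change of -1.21 ± 0.27 (adjusted p = 0.023). The libraries did not overlap in either case.

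*racgap1.2* (chromosome 9, 83529367 to 83561347, plus strand) was lower in TRDKO at 0 hpa at both stages. It was at 4.50 and 3.37 CPM in WT56 and at 0.618 and 0.761 CPM in TRDKO56, a log2 fold change of -2.54 ± 0.45 (adjusted p = 0.00722), and at 1.64 and 1.06 CPM in WT61 and 0.36 and 0.182 CPM in TRDKO61, a log2 fold change of -2.12 ± 0.51 (adjusted p = 0.00923). Its means at 6 hpa were also lower in TRDKO, at 3.70 CPM in WT56 against 0.478 in TRDKO56, and 1.38 in WT61 against 0.304 in TRDKO61, though not called. At 24 hpa the 4 groups were closer, with 1.79 and 1.38 CPM in WT56 against 0.812 and 1.16 in TRDKO56, and 1.08 and 1.28 CPM in WT61 against 1.37 and 1.45 in TRDKO61. From 0 to 24 hpa it fell in WT56, with a log2 fold change of -1.41 ± 0.35 (adjusted p = 0.0056), and rose in TRDKO61, with 2.27 ± 0.48 (adjusted p = 0.0216). The other copy, *racgap1*, showed log2 fold changes of -0.05 ± 0.19 and -0.01 ± 0.25 between the genotypes at 0 hpa.

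These genotype counts were small enough for 1 library to move them. At 0 hpa and stage 56 the count was 0 without replicate 1 of WT56 or without either replicate of TRDKO56. At 0 hpa and stage 61 it was 7 without replicate 1 of TRDKO61, 0 without replicate 1 and 1 without replicate 2 of WT61. At 6 hpa and stage 61 it was 1 without replicate 2 of WT61. At 24 hpa and stage 61 it was 0 without replicate 1 and 3 without replicate 2 of TRDKO61, and 0 without either replicate of WT61.

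A few members did not follow the others. *wee1*, the kinase that restrains CDK1, had a higher fitted level at 6 than at 0 hpa in all 4 groups. It went from 13.3 and 15.1 to 20.5 and 34.1 CPM in TRDKO56, a log2 fold change of 0.93 ± 0.26 (adjusted p = 0.0365), and from 11.8 and 13.8 to 19.5 and 25.9 CPM in TRDKO61, a log2 fold change of 0.86 ± 0.26 (adjusted p = 0.0469), both under the 2-fold limit. In WT56 and WT61 the log2 fold changes were 0.36 ± 0.29 and 0.61 ± 0.28, with adjusted p of 0.426 and 0.207. Its stage differences were small, with log2 fold changes from -0.29 to 0.14 over both genotypes and the 3 times.

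*nek2* changed little with time, from 182 and 196 CPM at 0 hpa to 202 and 205 CPM at 24 hpa in WT56 and from 94.5 and 95.8 to 129 and 124 CPM in WT61. It was called lower at stage 61 in WT at 0 hpa, a log2 fold change of -1.02 ± 0.13 (adjusted p = 0.000172). In TRDKO, at 166 and 137 CPM at stage 56 and 121 and 122 CPM at stage 61, the log2 fold change was -0.34 ± 0.13 (adjusted p = 0.0803). Both stage 61 libraries were below both stage 56 libraries in each genotype.

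*bub3* rose from 6 to 24 hpa at stage 56 by less than 2-fold. It went from 60.3 and 56.2 to 74.1 and 80.2 CPM in WT56, a log2 fold change of 0.38 ± 0.11 (adjusted p = 0.0399), and from 55.6 and 53.7 to 80.2 and 88.8 CPM in TRDKO56, a log2 fold change of 0.60 ± 0.13 (adjusted p = 0.0166). At stage 61 the values were 0.03 ± 0.11 in WT61 and -0.10 ± 0.13 in TRDKO61, with adjusted p of 0.929 and 0.705. For *fzr1* the values over this step were 0.61 ± 0.17 (adjusted p = 0.0323) in TRDKO56 and 0.41 ± 0.13 (adjusted p = 0.0534) in WT56. At stage 61 they were 0.13 ± 0.13 in WT61 and 0.03 ± 0.17 in TRDKO61.

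*mki67* combined the 6 hpa dip with little stage difference at 0 hpa and a larger one at 24 hpa, under the 2-fold limit. At 24 hpa it was at 109 and 148 CPM in WT56 and at 86.6 and 67.5 CPM in WT61, a log2 fold change of -0.73 ± 0.18 (adjusted p = 0.0184). In TRDKO its mean at 24 hpa was 157.3 CPM at stage 56 and 86.4 CPM at stage 61. From 6 to 24 hpa it was called higher in WT56, TRDKO56 and TRDKO61, with log2 fold changes of 1.68 ± 0.32, 2.04 ± 0.23 and 1.07 ± 0.23, and in WT61 the value was 0.86 ± 0.31 (adjusted p = 0.193). At 24 hpa it stood near its own 0 hpa level in every group, with log2 fold changes from -0.16 to 0.41.

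Most members were lowest at 6 hpa and highest at 24 hpa when the means of the 2 libraries were ordered. The lowest mean was at 6 hpa for 47 of 50 members in WT56 and also 47 in TRDKO56, for 45 in TRDKO61 and for 39 in WT61. The highest was at 24 hpa for 45, 49, 45 and 47, in the same order. This ordering was not counted over all genes. From 0 to 6 and from 6 to 24 hpa, 47% to 51.2% of all genes had a fitted change above 0. In WT61 the 11 members that were not lowest at 6 hpa included *anln*, *ccnb2*, *cenpe*, *incenp* and *kif11*.

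Another 74 mitosis genes that are not members were set beside them. Their medians from 6 to 24 hpa were 1.01, 1.30, 1.09 and 0.90 on the log2 scale for WT56, TRDKO56, TRDKO61 and WT61, with 35 of 73, 42 of 74, 21 of 74 and 13 of 73 called higher. At 0 hpa their stage medians were -1.25 in WT and -1.37 in TRDKO, nearer to 0 than the members' medians of -2.25 and -2.35.

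DNA replication genes, which act in S phase, were most called in WT56. From 0 to 24 hpa WT56 had 32 of 37 called higher, TRDKO56 12, TRDKO61 16 and WT61 10, with medians of 1.38, 0.94, 1.00 and 0.83. For the members the same counts were 5, 17, 20 and 35 of 50. With all 24 libraries in 1 fit the order of the groups by members' counts turned. Such alternatives are not given here for the replication genes. In the difference of WT61 minus WT56 from 0 to 24 hpa, 1 replication gene was higher and 7 lower, with a median of -0.57. For the members 6 were higher and 0 lower, with a median of 0.78. Over all genes 3.35% were called higher and 2.41% lower. In the fit over all 24 libraries no member was called for this difference.

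The transcription factors *foxm1* and *mybl2*, known as activators of G2/M genes in human cells, moved as most members did from 6 to 24 hpa and by stage at 0 hpa. In WT61 neither was called from 6 to 24 hpa (adjusted p = 0.131 and 0.0835). From 0 to 6 hpa *mybl2* changed little at stage 61, with log2 fold changes of -0.05 ± 0.35 in TRDKO61 and -0.16 ± 0.40 in WT61. Its stage differences at 6 hpa, -0.67 ± 0.42 in WT and -0.80 ± 0.43 in TRDKO, were not called. *foxm1* went from 4.93 and 1.78 CPM at 6 hpa to 12.3 and 13.9 CPM at 24 hpa in WT56, a log2 fold change of 1.94 ± 0.40 (adjusted p = 0.0122). At 0 hpa its stage difference was -2.44 ± 0.37 in WT and -2.50 ± 0.37 in TRDKO, and that of *mybl2* was -1.55 ± 0.30 and -1.75 ± 0.30, all 4 called. *cdc25b*, a CDC25 phosphatase outside the list, had stage differences of -0.12 ± 0.17 in WT and -0.48 ± 0.16 in TRDKO (adjusted p = 0.636 and 0.0503).

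*cdkn1a*, which encodes the CDK inhibitor p21, was higher at stage 61 in WT. At 0 hpa it was at 42.4 and 33.1 CPM in WT56 and at 158 and 115 CPM in WT61, a log2 fold change of 1.80 ± 0.24 (adjusted p = 0.000412). In TRDKO it was at 30.2 and 46.1 CPM at stage 56 and at 54.8 and 67.9 CPM at stage 61, a log2 fold change of 0.65 ± 0.23 (adjusted p = 0.0717). At stage 61 and 0 hpa it was lower in TRDKO than in WT, with a log2 fold change of -1.16 ± 0.22 (adjusted p = 0.00386). The members' median log2 fold change in that comparison was -0.01, and -0.44 to 0.19 when 1 library was left out. A link between *cdkn1a* and the members was not tested. In sum, a list of 9 CDK inhibitors and p53 targets differed less by stage. At 0 hpa the sum was 1189 and 1076 CPM in WT56 and 1223 and 1163 in WT61. In TRDKO it was 1215 and 1210 CPM at stage 56 and 1314 and 1309 at stage 61.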

How the data were processed

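By the submitters' processing notes, the reads were trimmed with cutadapt 3.2, aligned with STAR 2.7.7a and counted per gene with featureCounts of Subread 2.0.1, while the study's methods name other versions of STAR and Subread, and which were used for the deposited counts was not settled. The authors deposited raw counts per gene for all 24 libraries. Gene positions are those of the count table, and all 52 members had the same span in RefSeq. The 2 broken lines of the table were rejoined. The members and lists were chosen with earlier results of these data known.

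Counts were tested with edgeR 4.0.16 (R 4.3.3): TMM scaling, filterByExpr and the robust quasi-likelihood test, Benjamini-Hochberg adjusted over all genes tested (15909 to 16509). Each fit used 8 libraries: for time, both stages of 1 genotype at the 2 times; for stage or genotype, the 4 groups of 1 time; for differences of changes, 2 groups at 2 times. SE is the log2 fold change divided by the square root of F. Members were named by highest mean CPM of a role, the 3 largest called rises and falls of each time comparison, calls against the majority, and called differences of changes, which gave 27. Other members are named after their values were seen. The fits were tested on simulated data. Alternatives were DESeq2 1.42.0, other scalings, no filter, no fold limit, other sets of libraries, a replicate block and leaving out each library.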

Additional observations from a re-analysis of the deposited data

Results flagged for a closer look

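For 6 members the change from 0 to 24 hpa differed between WT61 and WT56 by the test of the difference itself, in edgeR. The difference on the log2 scale, WT61 minus WT56, was 1.84 for *ccnb3*, 1.57 for *cdk1*, 1.13 for *plk1*, 1.26 for *incenp*, 1.96 for *anln* and 1.37 for *racgap1*. All 6 were lower in WT61 than in WT56 at 0 hpa, and none of the 6 calls held under every alternative.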

How the results depend on the processing

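With 2 libraries a condition, counts of called members moved by over 1.5 times in 90 alternative values and not in 282, and medians moved by more than their replicate spread in 28 and not in 320. Of 419 single calls, 167 held under every alternative, 825 of 5040 alternative values lost the call and 0 changed sign. Held under every alternative were 37 of 39 TRDKO stage calls at 0 hpa and 34 of 43 in WT, but 0 of 20 calls in TRDKO61 and 0 of 12 in WT61 from 6 to 24 hpa. The cause of these differences was not tested. The alternative with no fold limit could not lose a call, so its values among the 5040 do not test stability. With DESeq2 the counts were 10 in TRDKO56 and 5 in TRDKO61 (0 to 6 hpa), 37 in TRDKO61 and 36 in WT61 (6 to 24 hpa), and 1 at 6 hpa and 2 at 24 hpa for the genotypes at stage 61. With only the 4 libraries compared they were 2 in WT56, 4 in TRDKO61 and 0 in WT61 (0 to 6 hpa), 1 in WT61 (6 to 24 hpa), 7 in TRDKO61 (0 to 24 hpa) and 0 for the genotypes at stage 61 and 24 hpa. With all 24 libraries in 1 fit they were 10 in TRDKO56 (0 to 6 hpa), 33 in TRDKO61 (6 to 24 hpa), 16 in WT61 (0 to 24 hpa), 0 for the difference of WT61 and WT56 (0 to 24 hpa), and for the genotypes 1 at stage 61 and 0 hpa, 1 at stage 56 and 6 hpa, 2 at stage 61 and 6 hpa and 0 at stage 61 and 24 hpa. With no fold limit they were 8 in WT56 (0 to 6 hpa), 19 in WT56 and 28 in TRDKO56 (0 to 24 hpa), and 4 for the genotypes at stage 61 and 0 hpa. With no filter they were 8 in TRDKO56 (0 to 6 hpa) and 23 for the difference of WT61 and WT56 (0 to 24 hpa).

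With the replicate number as a block the counts were 13 in TRDKO56 and 4 in TRDKO61 (0 to 6 hpa), and 10 in TRDKO61 and 6 in WT61 (6 to 24 hpa), and no other count moved by over 1.5 times. Deviations of libraries with the same number correlated at -0.256 to 0.207, so the numbers were not taken as pairs.

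Leaving out 1 library gave, from 0 to 6 hpa, 0 to 25 calls in WT56, 1 to 36 in TRDKO56, 1 to 2 in TRDKO61 and 0 to 2 in WT61. From 6 to 24 hpa it gave 3 to 35 in WT56, 9 to 45 in TRDKO56, 0 to 6 in TRDKO61 and 0 in WT61. From 0 to 24 hpa it gave 3 to 14 in WT56, 6 to 19 in TRDKO56, 2 to 20 in TRDKO61 and 16 to 35 in WT61. For stage it gave 36 to 42 in WT and 38 to 40 in TRDKO at 0 hpa, 2 to 17 and 0 to 30 at 6 hpa, and 24 to 40 and 38 to 42 at 24 hpa. For genotype it gave 0 to 1 at stage 56 and 0 to 7 at stage 61 at 0 hpa, 0 and 0 to 1 at 6 hpa, and 0 and 0 to 3 at 24 hpa. For differences of changes it gave 0 for WT61 and TRDKO61 at each step, and 0 to 3, 0, and 0 to 12 for WT61 and WT56. A lone library was assumed to vary like the other groups. Depth limits *ccnb1*, *birc5* and *racgap1.2*.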
